A study of Mus musculus with 12 samples.

Results

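The 9 genes described here are the core pluripotency factors of mouse embryonic stem cells and the LIN28 genes: Pou5f1, Sox2, Nanog, Sall4, Utf1, Zfp281, Tcf7l1, Lin28a and Lin28b. They were chosen by name, and every probe set that the platform annotation assigns to 1 of these symbols alone was taken, which gave 15 of 45101 probe sets and 9 of the 18193 genes measured. Their transcript levels were compared on 12 Affymetrix expression arrays of TBV2, a wild-type embryonic stem cell line of the mouse strain 129/SvP. The proline group (PiCs) had grown for 5 days with 500 µM L-proline, and the control group (ESCs) for the same time without it. All cells had LIF, the cytokine that holds mouse embryonic stem cells in the pluripotent state, in a medium without non-essential amino acids, and were plated sparsely on gelatin with no feeder layer. Each group holds 2 biological replicates with 3 lettered arrays each. The labels do not say what the letters mean or how the replicates were kept apart, so the 3 arrays of a replicate were averaged and p-values measure the spread between 2 proline and 2 control values, moderated by limma with a variance estimated over all genes, and not a spread known to be biological. All cells belong to 1 line, and a bulk array cannot tell fewer expressing cells from less RNA per cell.

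OCT4 (encoded by Pou5f1) and SOX2 bind DNA side by side at many enhancers of mouse embryonic stem cells, and with NANOG they sustain their own genes and one another. SALL4 and UTF1 belong to the same protein network on chromatin, while ZFP281 and TCF7L1 also restrain Nanog and other genes of the naive, pre-implantation state and favour its exit. LIN28A and LIN28B are RNA-binding proteins that block the maturation of let-7 microRNAs. OCT4 and SOX2 persist in the post-implantation epiblast, where many naive factors are lost.

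The promoters of Sox2, Nanog and Lin28a are shown because these 3 genes had the largest differences among the genes with clear signal, and because Sox2 and Nanog are textbook targets of the OCT4 and SOX2 proteins. The windows run from 250 bases before to 50 bases after an annotated start of the gene in RefSeq's annotation of GRCm38.p6, and 8 of the 9 genes have 1 or more. Capitals mark matches on either strand to the start of the octamer bound by OCT4 (ATGCAAA), to the SOX words ACAAAG and ACAATG, and to the TCF word CTTTGA. The word ACAATG was added after the Nanog sequence had been read.
Sox2 promoter, chr3:34649745-34650044, plus strand: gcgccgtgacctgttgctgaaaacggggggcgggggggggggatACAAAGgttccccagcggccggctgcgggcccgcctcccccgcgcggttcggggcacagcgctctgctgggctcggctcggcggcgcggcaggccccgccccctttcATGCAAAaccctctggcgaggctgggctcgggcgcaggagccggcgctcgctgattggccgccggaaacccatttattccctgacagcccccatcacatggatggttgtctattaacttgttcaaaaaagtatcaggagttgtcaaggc
Nanog promoter, chr6:122707239-122707538, plus strand: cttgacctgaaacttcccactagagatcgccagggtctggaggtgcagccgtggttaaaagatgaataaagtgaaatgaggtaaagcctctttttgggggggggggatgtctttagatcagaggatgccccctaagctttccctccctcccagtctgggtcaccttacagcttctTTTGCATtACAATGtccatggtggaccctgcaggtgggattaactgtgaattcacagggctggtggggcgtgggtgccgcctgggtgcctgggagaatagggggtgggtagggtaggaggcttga
Lin28a promoter, chr4:134018767-134019066, minus strand: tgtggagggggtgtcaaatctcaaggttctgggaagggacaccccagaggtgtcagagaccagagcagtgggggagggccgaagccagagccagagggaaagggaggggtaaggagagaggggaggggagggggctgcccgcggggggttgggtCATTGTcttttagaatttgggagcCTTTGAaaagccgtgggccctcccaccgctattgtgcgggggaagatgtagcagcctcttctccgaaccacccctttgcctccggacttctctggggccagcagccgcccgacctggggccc

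In the Sox2 window the octamer start lies 99 bases before the gene start and ACAAAG 206 bases before it. In the Nanog window the octamer start, on the minus strand, begins 75 bases and ACAATG 67 bases before the first annotated start, with 1 base between the capitals. The Lin28a window holds a TCF word 72 bases before its own start and ACAATG, on the minus strand, 96 bases before it, and no octamer start. That start is not the outermost one. The gene lies on the minus strand and begins at base 134019196, outside the printed window, so both words lie inside the annotated gene. Of 32851 promoters of this length, 4.63% hold the octamer start, 18.71% ACAAAG, 12.57% ACAATG and 16.0% the TCF word, so that single matches are common. Among the other members, Tcf7l1 holds ACAAAG and the downstream one of the 2 Pou5f1 windows holds ACAATG. These matches are letters in a window and not measured binding.

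Of the 9 genes, 0 reached an adjusted p under 0.05 in limma, as 4.36% of all genes did, and no member changed 2-fold, which 6.93% of all genes did. Lin28a and Lin28b measured higher after proline, by 0.67 and 0.58 on the log2 scale (Lin28b at a signal not separable from background), and so did Tcf7l1 by 0.46. Sox2 and Nanog measured lower, with log2 differences of -0.55 and -0.54, and there were smaller negative differences in Zfp281, Pou5f1, Sall4 and Utf1. At an unadjusted p under 0.05 stood 5 of the 9 (22.1% of all genes): Lin28a, Sox2, Lin28b, Nanog and Zfp281. The median absolute difference of the 9 genes was 0.46, against 0.18 over all genes, and their median signed difference was -0.25, against -0.03 over all genes. The biological replicate means of the groups did not overlap for 8 of the 9 genes (52.7% of all genes). The 6 proline arrays lay entirely apart from the 6 control arrays for Nanog, Lin28a, Lin28b and Tcf7l1, that is 4 of 9 (24.6% of all genes).

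**Figure D1:**
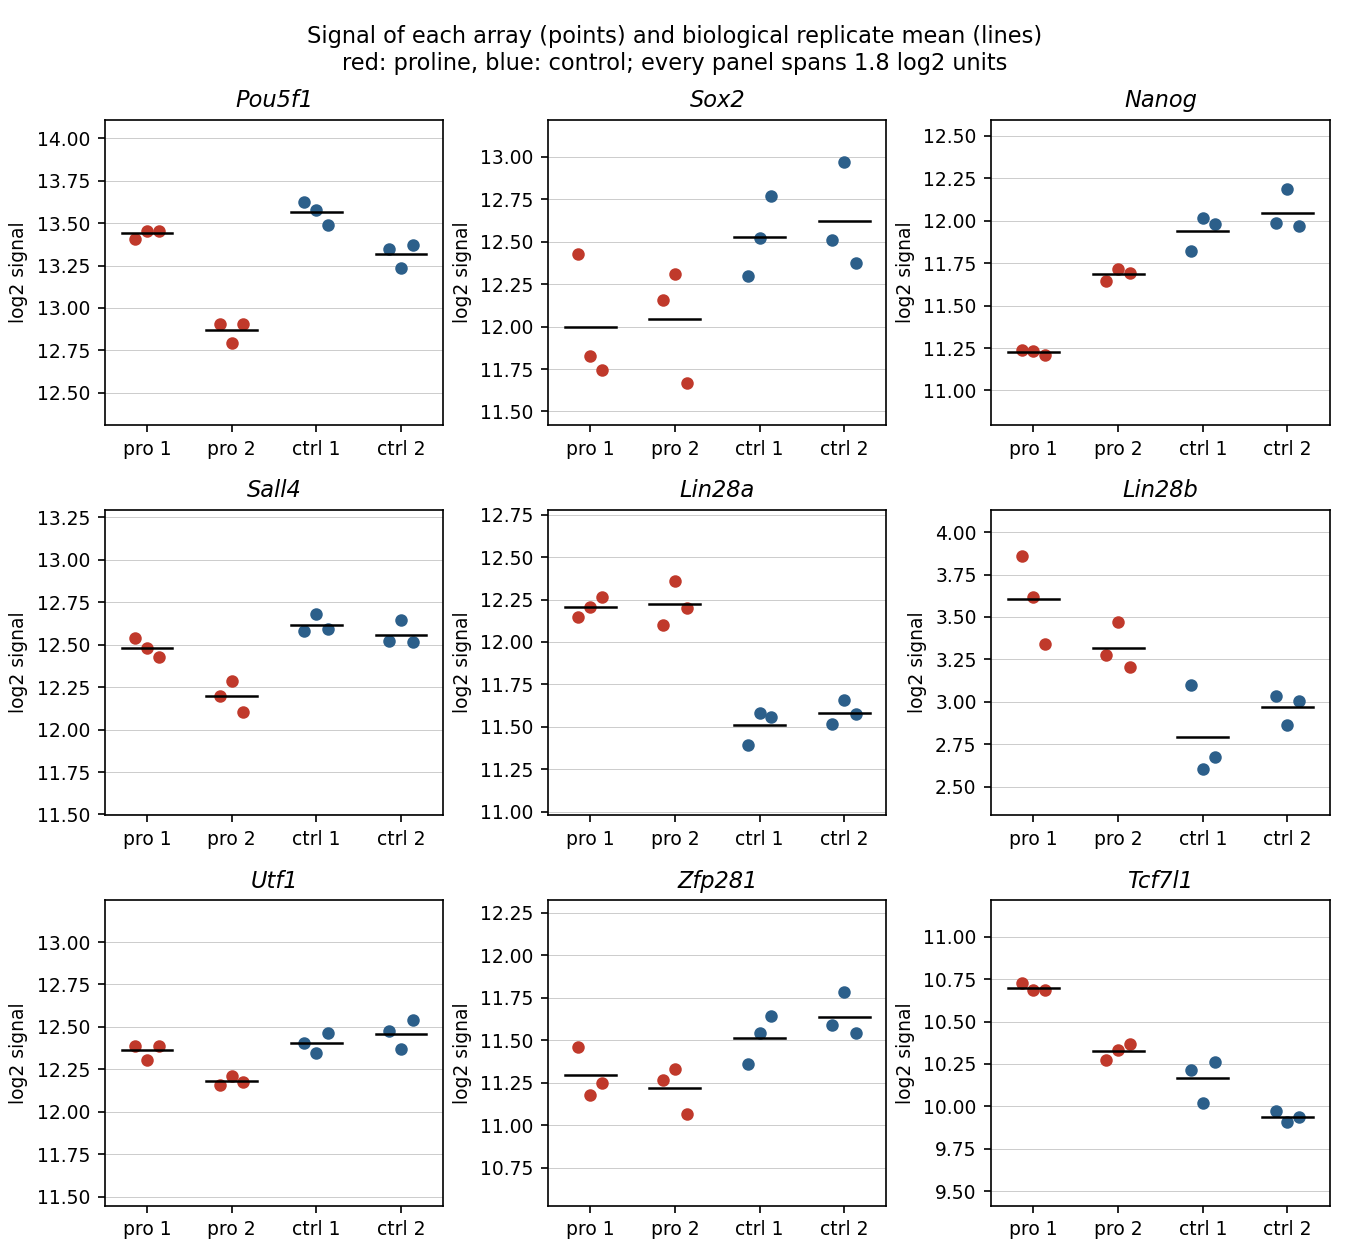
Log2 signal on each array (points) and the mean of each biological replicate (lines) for the probe set used for each gene, with 2 proline replicates left of 2 control replicates in every panel and 3 arrays each. Every panel spans 1.8 log2 units. Lin28a replicate means sit at 12.21 and 12.22 with proline and at 11.51 and 11.58 in controls, while the arrays of a single Sox2 replicate spread over up to 0.68.

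Pou5f1, the gene of the POU factor OCT4 without which the pluripotent state is lost, had a log2 signal of 13.44 and 12.87 in proline replicates 1 and 2, against 13.56 and 13.32 in control replicates 1 and 2. Proline replicate 2 was the low one, and proline replicate 1 lay between the controls, so the groups overlapped. The difference of -0.29 ± 0.23 (limma's moderated SE, n = 2 per group) had a 95% interval of -0.90 to 0.33 (adjusted p = 0.569). It rested on proline replicate 2: without that replicate it was -0.001, without proline replicate 1 it was -0.57, and without control replicate 1 it was -0.16. The replicates of a group differed by more than the groups did in proline cells, where replicate 2 was lower than replicate 1 by -0.57, and by -0.25 in controls.

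Sox2 encodes the HMG-box partner of OCT4. Its log2 signal was 12.43, 11.83 and 11.74 on the arrays of proline replicate 1 and 12.16, 12.31 and 11.67 on those of proline replicate 2. It was 12.30, 12.52 and 12.77 in control replicate 1 and 12.51, 12.97 and 12.37 in control replicate 2. Averaged by replicate, the level was 12.02 ± 0.03 with proline and 12.57 ± 0.06 in controls (SD, n = 2 each), and both proline means were lower than both control means. Set against each control mean in turn, the proline means differed by -0.62 to -0.48. The fitted difference was -0.55 ± 0.11, a 0.68-fold level, with a 95% interval of -0.85 to -0.25 (adjusted p = 0.0776 in limma). Single arrays were less orderly: they ran from 11.67 to 12.43 with proline and from 12.30 to 12.97 in controls, and overlapped.

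The spread of Sox2 between arrays of the same replicate (pooled SD 0.32) was larger than that of all but 0.693% of genes, whose median was 0.12. The replicate means nevertheless differed by only 0.05 with proline and 0.09 in controls, and the SE of the fit combines their spread with limma's variance over all genes. With the 12 arrays fitted and the biological replicate as a random block, the adjusted p of Sox2 was 0.246. Arrays on which Sox2 stood above its replicate mean tended to be those on which Zfp281 did (r = 0.96 over 12 arrays, as deviations from the replicate mean, a description). Sall4 (r = 0.81) and Nanog (r = 0.58) also ran with Sox2, and Pou5f1 ran opposite (r = -0.82). The remaining members lay between -0.11 and 0.27. On arrays with Sox2 above its replicate mean, the signals of all probe sets tended to be more widely spread (r = 0.87 with the SD of the array, which ran from 2.45 to 2.55). Quantile normalization left a Sox2 SD of 0.29. The part of array scaling in this spread was not tested further.

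Nanog, the homeobox gene whose level separates naive from exit-prone cells in mouse cultures, had 11.23 and 11.68 in the proline replicates and 11.94 and 12.05 in the control replicates. All 6 proline arrays, from 11.21 to 11.72, were below all 6 control arrays, from 11.82 to 12.18. The difference was -0.54 ± 0.19, a 0.69-fold level, with a 95% interval of -1.04 to -0.04 (adjusted p = 0.201). The proline replicates were 0.46 apart, and the difference was -0.77 without proline replicate 2 and -0.31 without proline replicate 1.

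Sall4, a zinc-finger partner of OCT4 and NANOG, had 12.48 and 12.20 in proline replicates against 12.62 and 12.56 in control replicates. The difference of -0.25 ± 0.14 was no larger than the gap of 0.28 between the proline replicates (adjusted p = 0.414). Without proline replicate 1 it was -0.39, and without proline replicate 2 it was -0.11. Its other probe set, which matches several transcripts by its _s_at suffix, measured -0.07 ± 0.13, with overlapping groups, and did not follow the first over the 12 arrays (r = -0.16). Utf1, a chromatin protein of pluripotent cells, had 12.36 and 12.18 in proline replicates and 12.40 and 12.46 in control replicates. That is a difference of -0.16 ± 0.13, with a 95% interval of -0.49 to 0.17 (adjusted p = 0.552). It was -0.25 without proline replicate 1 and -0.07 without proline replicate 2. Utf1's other probe sets measured -0.48 ± 0.24 and -0.01 ± 0.12. The last of these read between 5.16 and 5.57 on the 12 arrays, close to the 40th percentile of all probe sets (5.36), where signal and background are not separated.

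Zfp281, a zinc-finger repressor of Nanog in mouse embryonic stem cells, had 11.29 and 11.22 in proline replicates and 11.51 and 11.64 in control replicates. Both probe sets measured lower after proline, by -0.32 ± 0.12 (adjusted p = 0.221 over genes) and by -0.49 ± 0.14 (adjusted p = 0.194 over probe sets). They followed each other over the arrays (r = 0.90), and Zfp281 also followed Sox2 (r = 0.95). As with Sox2, its deviations from the replicate means ran with the SD of the array (r = 0.90), and the part of array scaling was not tested.

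Tcf7l1, also called Tcf3, is the TCF factor that represses naive genes in the absence of a Wnt signal. It had 10.70 and 10.33 in proline replicates against 10.16 and 9.94 in control replicates. The 6 proline arrays, from 10.28 to 10.72, were all higher than the control arrays, from 9.91 to 10.26, though by a narrow margin. The difference was 0.46 ± 0.18, a 1.38-fold level, with a 95% interval of -0.01 to 0.94 (adjusted p = 0.237). The other probe set gave 0.47 ± 0.25 with the same order of replicates (r = 0.95). In both groups replicate 2 was lower than replicate 1, by -0.37 with proline and by -0.23 in controls. Without proline replicate 1 the difference was 0.28, and without proline replicate 2 it was 0.65.

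Lin28a had the smallest p of the 9 genes. Its log2 signal was 12.21 and 12.22 in the proline replicates, against 11.51 and 11.58 in the control replicates, and every proline array (12.10 to 12.36) was higher than every control array (11.39 to 11.66). Each proline mean exceeded each control mean by 0.62 to 0.71. The difference was 0.67 ± 0.11, a 1.59-fold level, with a 95% interval of 0.37 to 0.96, and it missed the threshold (adjusted p = 0.0530 in limma). A second, dimmer probe set had 9.38 and 10.47 in proline replicates against 8.86 and 9.26 in control replicates. It measured higher too, by 0.86 ± 0.41, but its proline replicates were 1.09 apart and single arrays overlapped (adjusted p = 0.386 over probe sets). Where on the transcript the 2 probe sets lie was not analysed here.

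Lin28b, the paralog best known from later progenitors and tumours, had 3.61 and 3.32 in proline replicates and 2.79 and 2.97 in control replicates. On each of the 12 arrays this signal was below the 40th percentile (5.36), and its difference of 0.58 ± 0.16 (adjusted p = 0.124) cannot be told from a change in background, and no fold is read from it. It rests on 1 probe set, as do Pou5f1, Sox2 and Nanog.

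**Figure D2:**
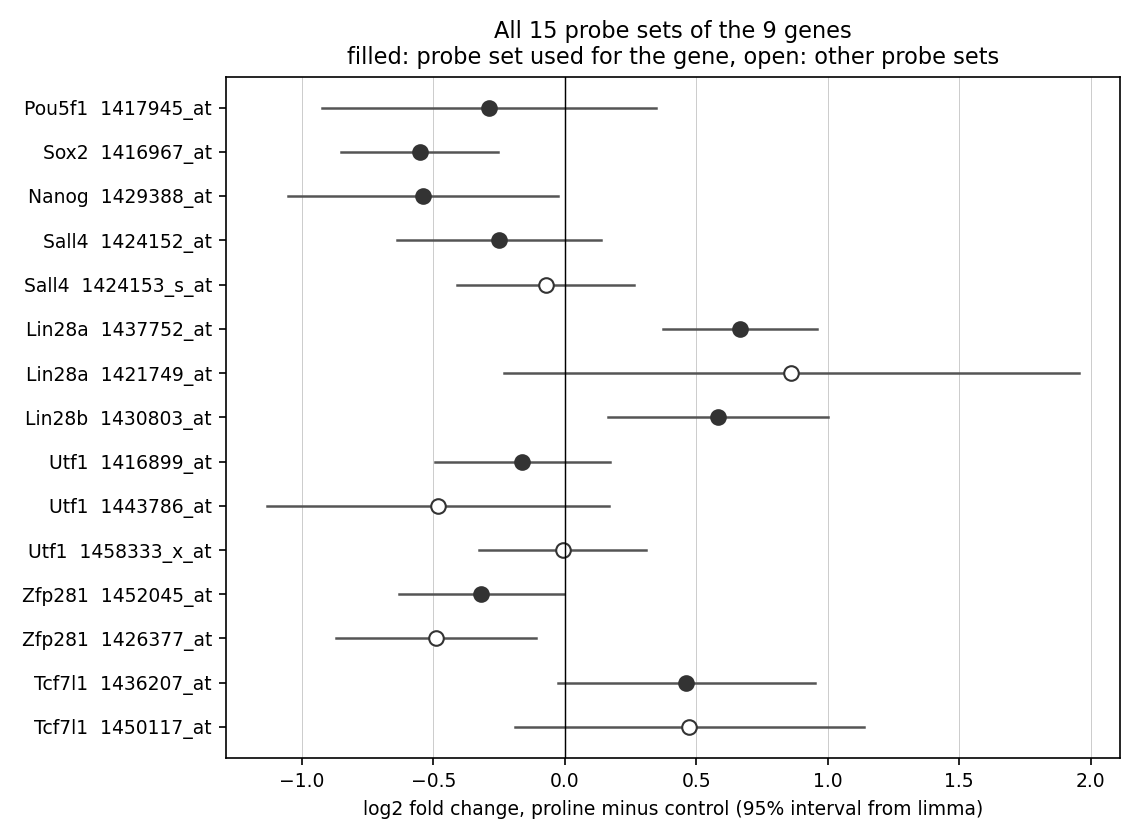
Log2 fold change, proline minus control, of the 15 probe sets with limma's 95% interval from the fit over all probe sets. Filled points are the probe sets used for the genes and open points the others. Lin28a, Lin28b and Tcf7l1 lie to the right of 0 and the other 6 genes to the left, and intervals clear of 0 belong to 1 probe set each of Sox2, Nanog, Lin28a and Lin28b and to both of Zfp281.

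Across probe sets, 10 measured lower and 5 higher after proline, and the probe sets of a gene did not differ in sign for any of the 5 genes with more than 1. Tested as single probe sets, 0 of the 15 passed in limma (0.0999% of all probe sets did), and 6 stood at an unadjusted p under 0.05 (17.7% of all). The groups' arrays lay apart for 4 probe sets, 1 each of Nanog, Lin28a, Lin28b and Tcf7l1.

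**Figure D3:**
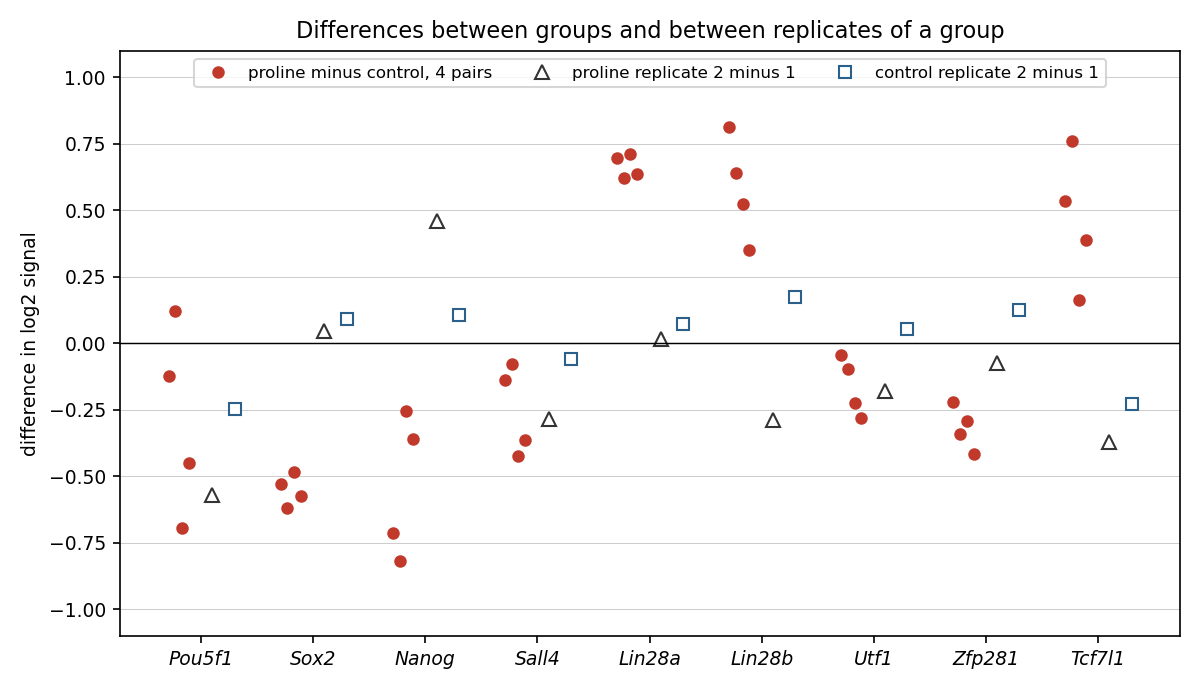
Difference in log2 signal for the 4 proline minus control pairs of biological replicates (red points), for proline replicate 2 minus 1 (triangles) and for control replicate 2 minus 1 (squares). In Sox2 and Lin28a the group differences lie far outside the replicate differences, whereas in Pou5f1 the pairs run from -0.70 to 0.12 around a replicate difference of -0.57. The single arrays behind these means overlapped between the groups for Sox2, with a pooled SD of 0.32 within a replicate. For Lin28a they did not overlap and the SD was 0.10.

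Genes with the most similar course over the 12 arrays were searched among 2399 well expressed, variable genes. The arrays share 4 replicates and 2 groups, so these correlations describe the arrays only. A gene picked this way shares the group difference of its member through the choice. Whether it passed the test is therefore no separate evidence. Pou5f1 was followed most closely by the metallothionein genes Mt2 (r = 0.988) and Mt1 (r = 0.977) and by the circadian repressor gene Ciart (r = 0.982). Like Pou5f1, none of the 3 passed the test, with log2 fold changes of -0.84 ± 0.54, -0.55 ± 0.43 and -0.91 ± 0.54. Nanog was followed by the thiamine transporter gene Slc19a2 (r = 0.987), the stress-response factor gene Xbp1 (r = 0.986) and the mitochondrial protease gene Yme1l1 (r = 0.985), which measured -0.57, -0.79 and -0.65 and did not pass either. Sox2 was followed by Morc3 (r = 0.962), Acbd5 (r = 0.951) and the AP-2 factor gene Tfap2c (r = 0.951), all lower without passing. Lin28a was followed by 3 genes that did rise: the cohesin subunit gene Stag2 (1.17 ± 0.12, adjusted p = 0.0288), the fatty acid binding protein gene Fabp5 (0.87 ± 0.13, adjusted p = 0.0429) and Ndn (0.87 ± 0.12, adjusted p = 0.0385).

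LIN28 proteins act on let-7 microRNAs, which share the seed that pairs with target messages. RefSeq's table of GRCm38.p6 lists 9 mature members from the 5′ arm, all 9 with the same seed, of which 3 are given with the seed (bases 2 to 8) in capitals.
mmu-let-7a-5p: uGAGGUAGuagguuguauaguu
mmu-let-7g-5p: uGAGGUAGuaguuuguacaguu
mmu-miR-98-5p: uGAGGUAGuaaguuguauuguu
The hairpin of let-7g follows because LIN28 is known to hold on to the word GGAG in the loop region, in capitals here.
let-7g hairpin, chr9:106178840-106178927, plus strand: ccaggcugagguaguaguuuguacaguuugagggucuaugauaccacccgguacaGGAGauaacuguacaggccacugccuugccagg

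This word occurs after the 5′ arm in 9 of 12 let-7 family hairpins of the table. The microRNAs themselves were not measured on these arrays. Of the LIN28 and let-7 pathway, 31 of 36 listed genes were measured: 4 rose, 0 fell and 27 did not pass, against 3.03% of all genes higher and 1.34% lower. The median of this list was 0.17, with 20 genes above 0 and 11 below. This list and the gene lists that follow were chosen with earlier results of these data known, so their counts are no independent evidence. Hmga2, a chromatin protein gene and classic let-7 target, had 10.43 and 10.76 in proline replicates against 8.75 and 8.76 in control replicates (1.84 ± 0.15, adjusted p = 0.0246). Msi1, an RNA-binding protein gene of neural progenitors, rose by 2.20 ± 0.12, Nr6a1 by 1.22 ± 0.18 and the cell surface gene Igdcc3 by 1.06 ± 0.15. NR6A1 is the orphan receptor GCNF, which represses Pou5f1 in differentiating mouse cells. For Msi1, Igdcc3 and Nr6a1 the weakest probe set measured 0.15, -0.04 and 0.03, and for Hmga2 0.73. Ccnd2 of the same list, named after its value was seen, ran the other way at -1.35 ± 0.33 (adjusted p = 0.109 in limma). All its proline arrays were lower than all control arrays, and its 7 probe sets measured -1.45 to -0.76.

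Known targets of OCT4 and SOX2 included 3 that fell among 18 measured (1.34% of all genes fell), with 0 higher (3.03%). Another 15 did not pass, and the median was -0.41. Zfp42, also called Rex1, had 11.49 and 11.74 in proline replicates against 12.96 and 13.04 in control replicates (-1.39 ± 0.14, adjusted p = 0.0289). The F-box gene Fbxo15 fell by 1.48 and the growth factor gene Fgf4 fell by 1.13 on the log2 scale. Sox2, Nanog and Pou5f1 themselves measured -0.55, -0.54 and -0.29. In the same list Foxd3, a forkhead gene needed in pluripotent cells, measured -0.77 ± 0.13 and did not pass (adjusted p = 0.0505). Lefty1, a Nodal antagonist gene named after its value was seen, had the largest difference of the list and ran the other way, at 1.67 ± 0.32 with all proline arrays higher (adjusted p = 0.0676). The homeobox gene Hesx1, also named afterwards, measured 0.70 ± 0.18 (adjusted p = 0.120).

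Of 12 genes that TCF7L1 represses in mouse embryonic stem cells, 5 fell (1.34% of all genes), 2 rose (3.03%) and 5 did not pass. The median was -1.66, with 9 genes below 0 and 3 above. At an unadjusted p under 0.05 stood 10 of the 12 (22.1% of all genes). The falls were in the naive factors Tbx3 (-2.64 ± 0.42), Prdm14 (-1.96 ± 0.20), Nr5a2 (-1.93 ± 0.12), Nr0b1 (-1.88 ± 0.19) and Esrrb (-1.49 ± 0.13). The increases were in the Wnt feedback gene Axin2 (1.26 ± 0.13) and the Nodal antagonist gene Lefty2 (1.31 ± 0.19). The weakest probe sets of Tbx3 and Nr5a2 measured -0.38 and -0.48. Klf4 (-2.41 ± 0.41), Tfcp2l1 (-1.83 ± 0.34) and Klf2 (-1.03 ± 0.22), named after their values were seen, did not pass. For each, all proline arrays were lower than all control arrays, and the weakest probe set of Tfcp2l1 measured -0.03. This list was drawn up with the fall of several of its genes on these arrays already known, so its count is no independent evidence.

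Of 27 measured genes for partner proteins of the core factors, 1 rose (3.03% of all genes), 0 fell (1.34%) and 26 did not pass. The median was -0.03. The increase was in Mta1 (0.82 ± 0.11, adjusted p = 0.0388), a subunit of the NuRD remodeller, whose other probe set measured -0.03. Among 21 paralogs of the members, Sox3 rose (2.95 ± 0.25) and Sox15 fell (-1.14 ± 0.16), 19 did not pass, and the median was -0.04. SOX3 is the SOXB1 relative of SOX2 in the epiblast and neural plate, and SOX15 can also pair with OCT4. Sox3 had 9.66 and 9.65 in proline replicates against 6.36 and 7.05 in control replicates, and its other probe set measured 0.78. The Sall4 relative Sall2 measured 2.40 ± 0.44 (adjusted p = 0.0615). Its relatives Sall1 and Sall3, named after their values were seen, ran the other way at -0.81 ± 0.29 and -0.41 ± 0.27. Pou3f1 measured 2.09 ± 0.51 (adjusted p = 0.104), with control replicates at 7.59 and 9.09. A list of 9 genes held beta-catenin, the Groucho co-repressors with which TCF7L1 works, Ctbp1, Ctbp2 and Hdac1. Of these 9, 0 passed in limma and 1 stood at an unadjusted p under 0.05, with a median of 0.03. That gene was the Groucho gene Tle1, which measured 0.56 ± 0.17 (adjusted p = 0.162). Tle5 had the largest difference of the list, -1.03 ± 0.39 (adjusted p = 0.227), and Tle4 measured -0.47 ± 0.21. For both, all proline arrays were lower than all control arrays. In this list 5 genes measured above 0 and 4 below.

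**Figure D4:**
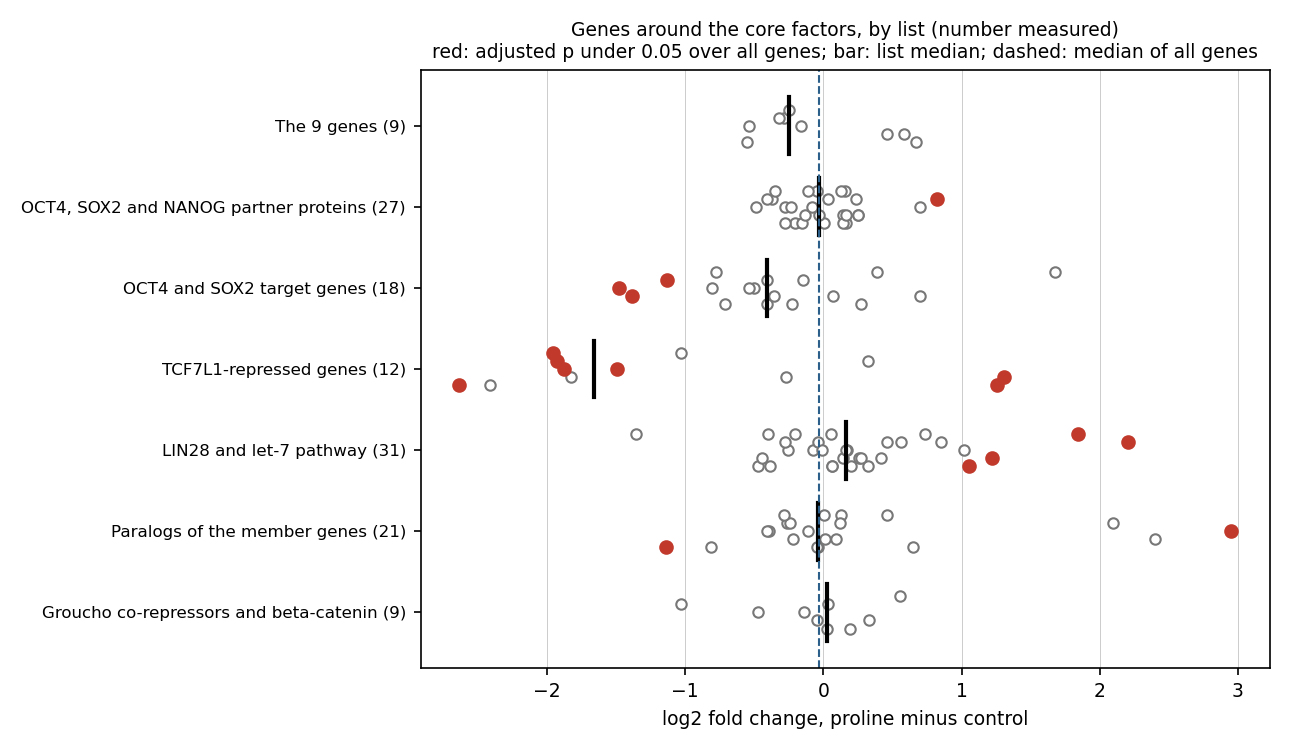
Log2 fold change, proline minus control, of the 9 genes and of the genes in 6 lists around them, with the number measured in parentheses. Red points passed an adjusted p of 0.05 over all genes, bars are list medians and the dashed line is the median of all genes (-0.03). The 9 genes lie between -0.55 and 0.67, while the TCF7L1-repressed list reaches -2.64 and has its median at -1.66.

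Over the whole table, the correlation was 0.996 to 0.998 between arrays within a replicate, 0.985 to 0.989 between the replicates of a group and 0.962 to 0.981 between groups, and the array medians lay between 5.99 and 6.03. The count of 794 genes past the threshold needs all 4 biological replicates, since leaving out any of them left 0 in limma, with 2766 to 3676 genes at an unadjusted p under 0.05. The beta-actin 5′ minus 3′ signal, which follows RNA integrity and labelling, was -0.66 and -0.24 in proline replicates and -0.90 and -0.50 in control replicates. The 18S ribosomal RNA signal was 9.74 and 8.35 in proline replicates and 10.74 and 10.04 in control replicates, lowest in the replicate with the lowest Pou5f1. Their part in the results was not tested.

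Markers of embryonic stem cells other than the members had 5 lower (Esrrb, Alpl, Zfp42, Fbxo15 and Fgf4), 1 higher (Fut4) and 3 not past the threshold among 9. Of all genes, 1.34% were lower and 3.03% higher. Fut4 was at 4.54 to 5.14 on the control arrays, below the 40th percentile of 5.36, and its other probe set measured 0.30. Since SOX2 and LIN28 also mark neural progenitors, markers of other cells were summed as linear signals. Neural progenitor markers had 3 higher, 1 lower and 6 not past the threshold among 10, a summed signal of 1418 and 1524 in proline replicates against 1089 and 982 in control replicates, and 4 genes dim on all arrays, Sox1 among them. The higher ones were Zfp521, Nes and Fabp7 and the lower one Tubb3. On the control arrays Zfp521 was at 3.97 to 4.74 and Fabp7 at 4.11 to 4.71, below the 40th percentile. Fabp7 was at 5.21 to 5.83 on the proline arrays. The weaker probe set of Zfp521 measured 0.56, and the weakest of Nes 1.37. Mesendoderm markers had 1 higher among 7, Eomes, with sums of 982 and 1615 in proline replicates against 330 and 332 in control replicates. In that list 4 stood at an unadjusted p under 0.05, all 7 were above 0 and the median was 0.98, with Mixl1 at 2.96 ± 0.51 (adjusted p = 0.0559). Fibroblast, extraembryonic endoderm and trophoblast markers held 0 past the threshold among 11, 12 and 11 in limma, with 1, 3 and 2 at an unadjusted p under 0.05 (22.1% of all genes). Their sums were 817 and 1388, 4534 and 6631, and 2931 and 8696 in proline replicates, against 1202 and 801, 3299 and 3133, and 1779 and 4127 in control replicates. Of the 12 extraembryonic endoderm markers, 10 measured above 0 and 2 below, and 3 were dim on all arrays. Dab2 measured 1.68 ± 0.28 (adjusted p = 0.0545 in limma), Col4a1 1.02 ± 0.23 and Lamb1 0.93 ± 0.19, each with all proline arrays higher. The trophoblast sums followed the keratin genes, with Krt8 at 9.71 and 11.97 in proline replicates against 7.17 and 10.40 in control replicates and Krt18 at 9.92 and 11.70 in proline replicates against 6.84 and 10.00 in control replicates. The trophoblast markers Elf5, Tpbpa and Plac1 were dim on all arrays, and Tfap2c measured -0.69. The marker genes in this paragraph were named after their values were seen, and the part of such cells in the levels of the 9 genes was not tested.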

How the data were processed

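The values are log2 signals, deposited for 45101 probe sets on each of 12 arrays and normalized by the authors with MAS5 and RMA per the submitters' processing notes, which give no version and do not say which made the table. It has no detection calls. Gene names came from the platform's annotation, with symbols checked by gene ID against a RefSeq gene table, and 34945 had 1 symbol. A gene is its brightest probe set (18193 genes, 9010 of them with a choice). Arrays of a biological replicate were averaged and groups compared with limma 3.58.1 in R 4.3.3 (two-sided, no covariate, 2 residual and 2.60 prior degrees of freedom), with Benjamini-Hochberg adjustment over all genes, or over 45037 probe sets, and a threshold of 0.05. An exact permutation test of 2 against 2 values cannot give p under 0.333, so each p rests on limma's model. For arrays, the number of replicates limits the precision. The fit was tested on simulated data. Members, lists, motifs and alternatives were chosen with earlier results of these data known. Named list genes are those past the threshold or among the 4 smallest p, unless said to be named after their values were seen. Genes of like course are the 3 highest correlations among genes above the median signal with a range of at least 1, clone-type symbols left out. Plots were drawn with matplotlib 3.10.9.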

Additional observations from a re-analysis of the deposited data

How the results depend on the processing

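None of the 9 genes changed direction under any alternative run, single replicates or arrays left out included. Several of these runs could not change it. The random block, independent arrays, replicate block, intensity trend, dim filter, 2-fold minimum and single probe sets keep the same fold by design. Without proline replicate 2, Pou5f1 was at -0.001, a direction in sign only. The count of members past the threshold was 0 with quantile normalization, median centring, the filter on dim signals, the median over probe sets, each probe set by itself, and each array left out. A 2-fold minimum can only remove genes, so its count of 0 was fixed by the main fit. Leaving out a replicate leaves no spread within its group, and no count of members is read from those runs. The member count was 2 with an intensity trend (Sox2, adjusted p = 0.0398, and Lin28a, 0.0320), 3 with the 12 arrays and the replicate as a random block (Nanog, 0.0129, Lin28a, 0.000977, and Tcf7l1, 0.0218) and 7 with the 12 arrays as independent. The adjusted p of Lin28a ran from 2.10e-06 to 0.210 over the alternatives. Of 80 member values under these settings other than leaving samples out, 13 crossed the threshold. The fold of Utf1 was -0.48 by the median over its probe sets. The count of all genes past the threshold was 3987 in the random block, 6804 with independent arrays, 351 by the median over probe sets, 45 with each probe set by itself, and 0 to 844 when a replicate or array was left out. With the biological replicate number as a replicate block it was 2039 for all genes and 1 for the members (Lin28a, adjusted p = 0.0391). The labels do not say that a number is shared by the groups, so the number was not taken as a pairing. Replicate 2 minus 1 did correlate between the groups across genes, at r = 0.338, and what the number shares between them was not tested. Signals under the 40th percentile limit what Lin28b can show.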

Other observations

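Over the 12 arrays, Nanog and Tcf7l1 ran opposite to each other (r = -0.96), within the groups as well as between them by the order of replicate means. Nanog was higher in replicate 2 than in replicate 1, by 0.46 with proline and 0.11 in controls, and Tcf7l1 lower, by -0.37 and -0.23. The 12 points are 4 replicates with 3 arrays each, so this is a description. Pou5f1 followed neither gene (r = 0.0003 with Nanog and 0.001 with Tcf7l1) and stood closest among the members to Sall4 (r = 0.83) and Utf1 (r = 0.75).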
